A study of Homo sapiens with 4 samples.

Results

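Translation initiation factors are the proteins that bring the initiator tRNA, the small ribosomal subunit and the capped end of an mRNA together and place the ribosome at a start codon. The factor eIF2 carries the initiator tRNA in its GTP form and is recharged by eIF2B, eIF3 is the large scaffold on the small subunit, and the eIF4 group binds the cap and opens the leader of the mRNA. Cells tune the process by phosphorylating the alpha subunit of eIF2 and by sequestering the cap-binding protein eIF4E, and tumour cells are known for depending on a high supply of eIF4E. The 45 genes described here are those whose platform symbol starts with EIF and a digit, apart from the eIF2 kinases (EIF2AK) and the Argonautes under their old EIF2C names. They are 45 of the 15870 genes with a named probe set, and each was represented by 1 probe set.

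RNA was measured on 4 arrays of MDA-MB-231, an established human breast carcinoma line. For 2 arrays the transfection label reads shDROSHA, a short hairpin aimed at the nuclear ribonuclease that starts microRNA processing, and for 2 it reads shNC, the control, all in the same line and medium. The series text speaks instead of mock-transfected control cells, and this difference was not settled. The sources used here do not give the number of hairpins or whether the cells were a clone or a pool, and nothing in the labels beyond the words biological rep tells whether cultures were separate, so the errors measure the spread between these samples.

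Values are log2 signals made by the authors with RMA, in which a difference of 1 means 2-fold. Array medians lay at 7.21 and 7.21 in shDROSHA and at 7.25 and 7.24 in shNC. DROSHA itself had signals of 8.71 and 8.74 in shDROSHA, against 9.66 and 9.76 in shNC, a log2 fold change of -0.99 (SE 0.073, adjusted p = 3.89e-06). The 6 genes expected in this line (VIM, CD44, AXL, CAV1, PLAU and LGALS1) gave signals of 9.45 to 12.37, the 3 measured of 5 that should be low in it 6.02 to 7.20, and 10 measured markers of blood, vessel, stroma and liver cells 4.21 to 7.27. Averaged over those 10 markers the level was 5.87 to 5.92 in shDROSHA and 5.81 to 5.82 in shNC, and 0 of them passed limma's test (0 at an unadjusted p under 0.05). Of the 6 genes expected in the line, AXL rose (0.33, adjusted p = 0.0044), and CAV1 (-0.23, adjusted p = 0.0031) and PLAU (-0.26, adjusted p = 0.012) fell; their part in the results below was not tested. CDH1 and PGR, also listed in the low class, were not analysed here.

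Rose, fell and changed are said only of genes with an adjusted p under 0.05 in limma, with the error model that follows signal level (the trended fit) and adjustment over all 18603 probe sets. SEs and intervals come from that fit. In bulk RNA of a culture, fewer cells carrying a transcript and less of it per cell cannot be told apart.

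The levels of 7 initiation factor genes changed in shDROSHA relative to shNC, all by less than 1.5-fold. The messages for eIF1A (EIF1AX), the alpha and beta subunits of eIF2 (EIF2S1 and EIF2S2), the cap-binding proteins eIF4E and 4EHP (EIF4E and EIF4E2) and the alternative tRNA-delivering factor eIF2A (EIF2A) rose, by 1.15-fold to 1.38-fold. The message for the third cap-binding relative, EIF4E3, fell by 0.57 on the log2 scale. The other 38 did not pass, among them all 13 eIF3 genes and all 5 eIF2B genes.

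The count of 7 called of 45 (15.6%) compares with 6.41% of all probe sets. The 6 that rose compare with 3.12% of all probe sets called higher, and the 1 that fell with 3.28% called lower. Calls depend on brightness: 33 of the 45 lay in the brightest of 5 equal bins of signal, in which 15.6% of all probe sets were called, and 6 of those 33 (18.2%) passed. Of the 8 members in the next bin 0 passed in limma, against 8.92% of all probe sets there. At matched brightness the share called in either direction was near the background. All 6 calls in the brightest bin were higher (18.2%), against 9.67% of all probe sets there called higher, and 0 were lower, against 5.97%. In the constant fit, which assumes 1 error prior for all levels and called 0.00538% of all probe sets, 0 of the 45 passed (6 at an unadjusted p under 0.05 in limma, against 15 in the trended fit). The count also rested on single arrays: it was 2 without shNC replicate 1 (EIF1AX and EIF4E), 5 without shNC replicate 2, 6 without shDROSHA replicate 2 and 11 without shDROSHA replicate 1. The plot of change against signal level shows the members among all probe sets.

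**Figure D1:**
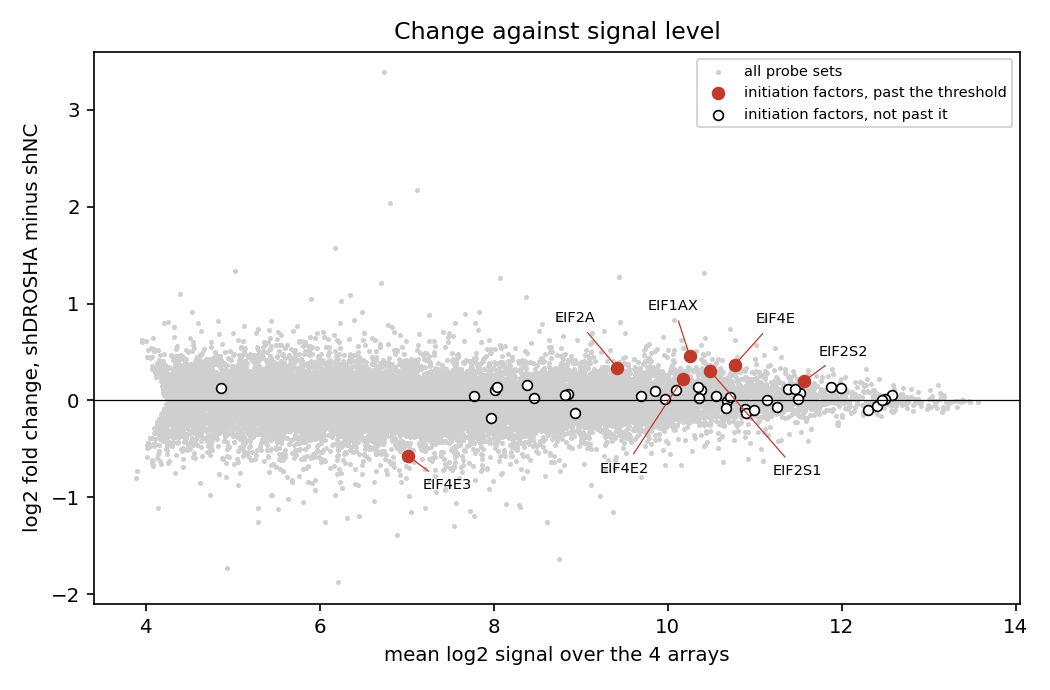
Log2 fold change (shDROSHA minus shNC, vertical) against mean log2 signal over the 4 arrays (horizontal) for all 18603 probe sets in grey and 44 initiation factor genes in circles, the Y-linked EIF1AY being left unmarked. Filled red circles are the 7 genes past the threshold; 6 lie above 0 between signals of 9 and 12, and EIF4E3 lies below 0 at about 7.

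Across all 45 genes the differences were small and mostly upward. As deposited 34 were higher and 11 lower, with 35 and 10 after centring each array on its median and 29 and 16 after a further quantile normalization. The median log2 fold change was 0.05, with quartiles of 0.0021 and 0.13, against 0.00086 over all probe sets. For the 33 members in the brightest bin it was 0.045, against 0.020 over all probe sets there. Between arrays of a group the median level of the members had an SD of 0.048. Of all 18603 probe sets 9343 were higher. In the brightest bin 25 of the 33 members were higher (75.8%), against 55.7% of all probe sets there. The arrays of the groups did not overlap at 27 of the 45 (60%), against 47.8% of all probe sets. Of the 27, 19 were higher and 8 lower. Of all 8885 probe sets without overlap, 4347 were higher and 4538 lower (23.4% and 24.4% of all 18603). Among the 33 in the brightest bin 23 did not overlap (69.7%), against 64% of all probe sets of that bin. Of the 23, 17 were higher and 6 lower. Among the 3721 probe sets of the bin 2380 did not overlap, 1372 of them higher and 1008 lower. Plotted by role, the genes around eIF2 lay mostly above 0 and those of the eIF3 scaffold on both sides of it.

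**Figure D2:**
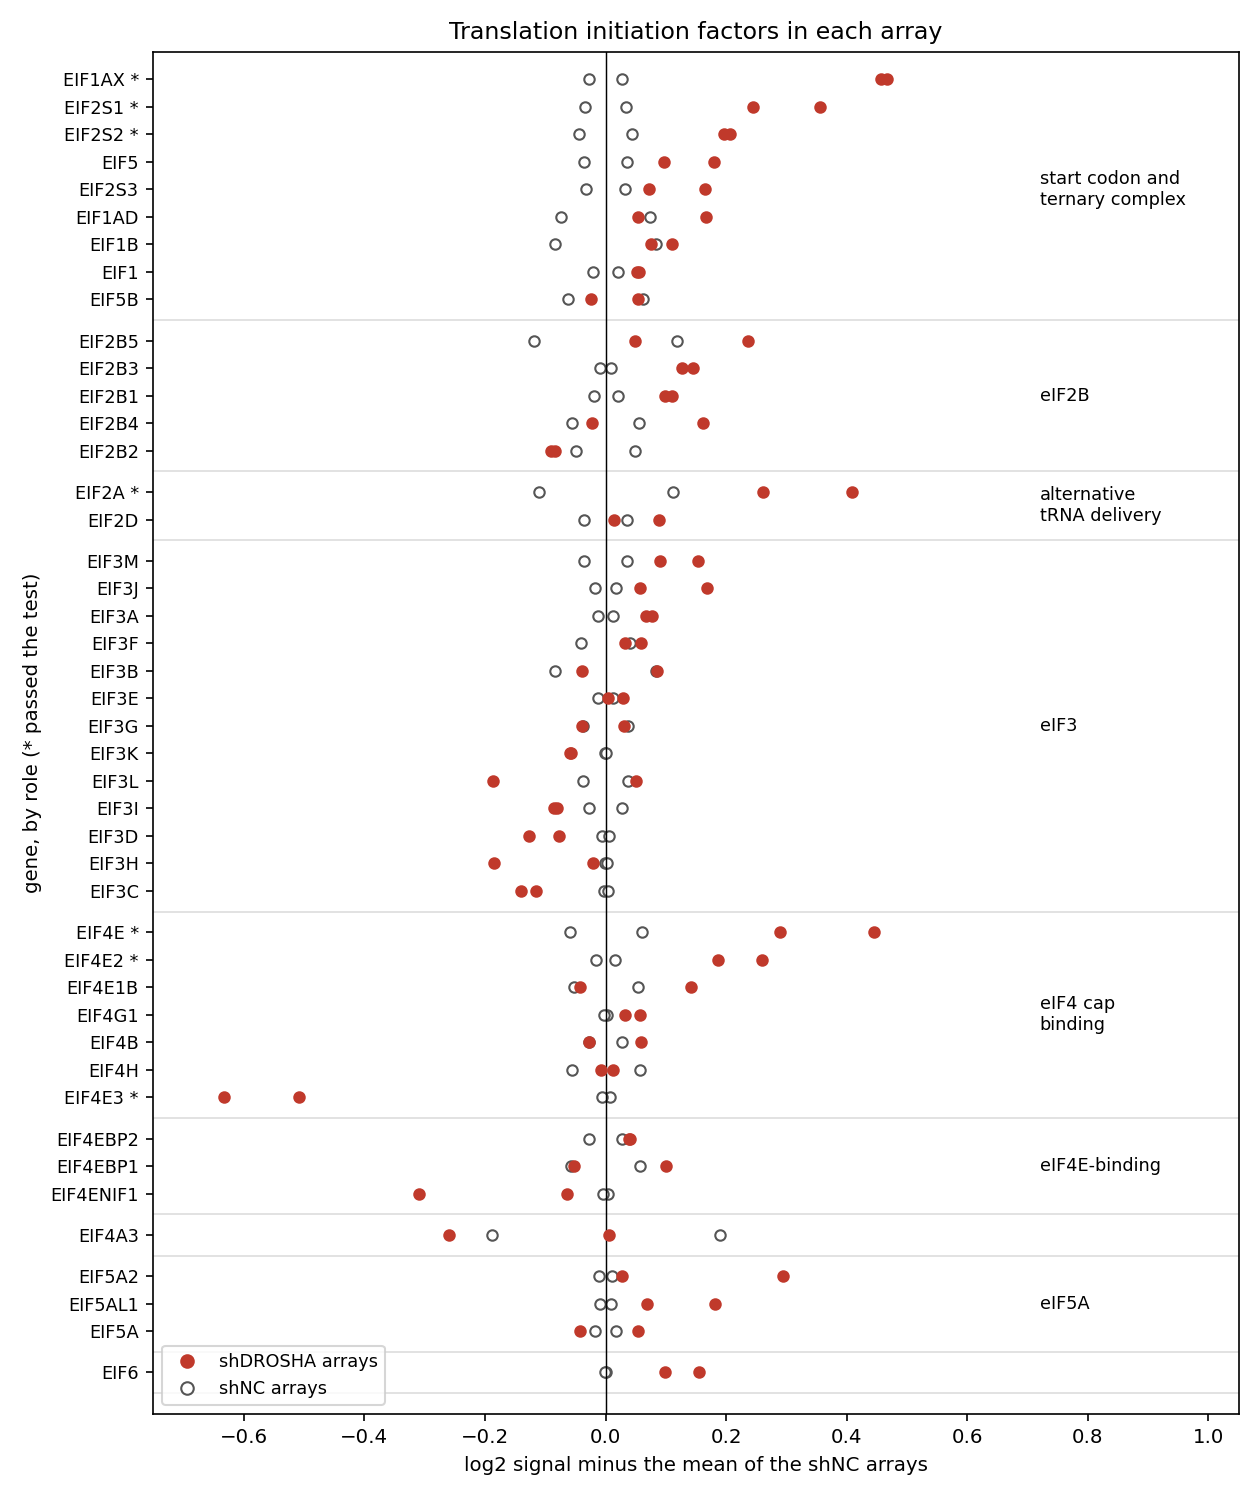
Log2 signal minus the mean of the shNC arrays (horizontal) for 44 initiation factor genes grouped by role (vertical, EIF1AY not drawn). Each gene has 2 filled red points, the shDROSHA arrays, and 2 open points, the shNC arrays; an asterisk marks the 7 past the threshold. All asterisked genes have red points clear of the open ones, and the eIF3 genes scatter on both sides of 0.

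The group for start codon selection and initiator tRNA delivery held 10 measured genes, among them EIF1AD, whose role in this step was not tested. All 10 were higher in shDROSHA as deposited and after median centring, and 9 of 10 after a further quantile normalization, where EIF5B differed by -0.0071. The median was 0.13, 3 rose and 0 fell. The 3 that rose were among the 8 of these genes in the brightest bin, where 9.67% of all probe sets were called higher and 55.7% had a difference above 0. EIF1AX encodes eIF1A, which sits in the decoding site of the small subunit and promotes scanning. Its signals were 10.48 and 10.49 in shDROSHA, against 9.99 and 10.05 in shNC. Both knockdown arrays were thus above both controls by several times the spread within a group. The log2 fold change was 0.46 (SE 0.056, 95% interval 0.34 to 0.58, adjusted p = 0.00028), or 1.38-fold, and it was 0.43 to 0.49 when single arrays were left out, always past the threshold. Its Y-linked relative EIF1AY has a nearly identical sequence and a probe set in the dimmest of the 5 bins, it did not pass, and its probes may read EIF1AX transcripts. EIF1AY is counted among the 10 higher genes and among the 34 of all 45, although its arrays overlapped (4.96 and 4.68 in shDROSHA, 4.50 and 4.72 in shNC). Whether its probe set measured anything apart from background or EIF1AX was not tested, so it cannot be taken as separate from EIF1AX.

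EIF2S1 encodes eIF2 alpha, the subunit that stress kinases phosphorylate. It had 10.58 and 10.70 in shDROSHA and 10.31 and 10.37 in shNC, with no overlap. It rose by 0.30 (SE 0.058, 95% interval 0.18 to 0.42, adjusted p = 0.0064). EIF2S2, the beta subunit, had 11.68 and 11.67 in shDROSHA and 11.43 and 11.52 in shNC. The shDROSHA arrays nearly coincided and lay above both controls, and EIF2S2 rose by 0.20 (SE 0.045, adjusted p = 0.015). EIF2S3, the gamma subunit that holds GTP and the initiator tRNA, had 11.40 and 11.49 in shDROSHA against 11.29 and 11.36 in shNC. Its arrays did not overlap either, but the difference of 0.12 (SE 0.048) did not pass (adjusted p = 0.18). Without shNC replicate 1 the calls of EIF2S1 (adjusted p = 0.058) and EIF2S2 (adjusted p = 0.18) were lost, with differences of 0.27 and 0.16.

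The RefSeq promoter of EIF2S1 is shown because this gene is a textbook case of a promoter bound by the nuclear respiratory factor NRF1. Both strands of the 300 bases from 250 before to 50 after the annotated start were searched for CGCATGC, the centre of the NRF1 site, and overlapping matches were joined. EIF2S1 held 2 such runs, beginning 20 and 3 bases before the start. They lie in chr14:67360297-67360326 and chr14:67360314-67360343 (GRCh38.p14, plus strand), and the capitals mark them.
EIF2S1 upstream run: ttcagcgcttgCGCATGCGaggaggttccg
EIF2S1 run across the start: cgaggaggttcCGCATGCGcggtggagtga
The letters occurred in 2 of the 38 members with a RefSeq promoter (5.26%), EIF2S1 and EIF2B5, and in 4.74% of 27305 genes with one.

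The remaining genes of the start-site group include EIF5, which triggers GTP hydrolysis on eIF2. It had 11.91 and 11.99 in shDROSHA against 11.85 and 11.78 in shNC. The groups did not overlap, and the difference of 0.14 (SE 0.044) fell just short of the threshold (adjusted p = 0.083). It passed with each array centred on its median (0.17, adjusted p = 0.040). EIF1, which guards against wrong start codons, had 12.61 and 12.61 against 12.53 and 12.58, a difference of 0.054 with an adjusted p of 0.45. Its paralog EIF1B, EIF1AD and EIF5B, the factor that joins the large subunit, differed by 0.015 to 0.11 with overlapping arrays.

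The exchange factor eIF2B, which reloads eIF2 with GTP and is the complex blocked by phosphorylated eIF2 alpha, had 0 of 5 subunits past the threshold in limma (1 at an unadjusted p under 0.05). The share called was 6.41% of all probe sets. It was 15.6% in the brightest bin, with EIF2B1, EIF2B2 and EIF2B3, and 8.92% in the next, with EIF2B4 and EIF2B5. The difference of eIF2B from eIF2 was not tested. The 5 eIF2B subunits differed by -0.09 to 0.14, with 4 higher and 1 lower under each of the 3 scalings. EIF2B3 had 10.42 and 10.41 in shDROSHA and 10.29 and 10.27 in shNC, a difference of 0.14 (95% interval 0.020 to 0.25, adjusted p = 0.17). EIF2B5, the catalytic subunit, had 8.02 and 8.21 against 7.85 and 8.09. These arrays overlapped, and the difference of 0.14 had an adjusted p of 0.55. The only lower one, EIF2B2, had 10.84 and 10.84 against 10.88 and 10.98, a difference of -0.09 (adjusted p = 0.39).

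A pair of factors can deliver the initiator tRNA without eIF2. EIF2A, which despite its name is not a subunit of eIF2, had 9.52 and 9.66 in shDROSHA, against 9.14 and 9.37 in shNC. The groups did not overlap, although the shNC arrays lay apart, with an SD of 0.157. EIF2A rose by 0.34 (SE 0.084, 95% interval 0.16 to 0.52, adjusted p = 0.028). The call was lost without shNC replicate 1 (0.22, adjusted p = 0.27) and without shDROSHA replicate 2 (0.26, adjusted p = 0.055). EIF2D had 8.81 and 8.89 against 8.76 and 8.83, overlapping, with a difference of 0.05 (adjusted p = 0.80).

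**Figure D3:**
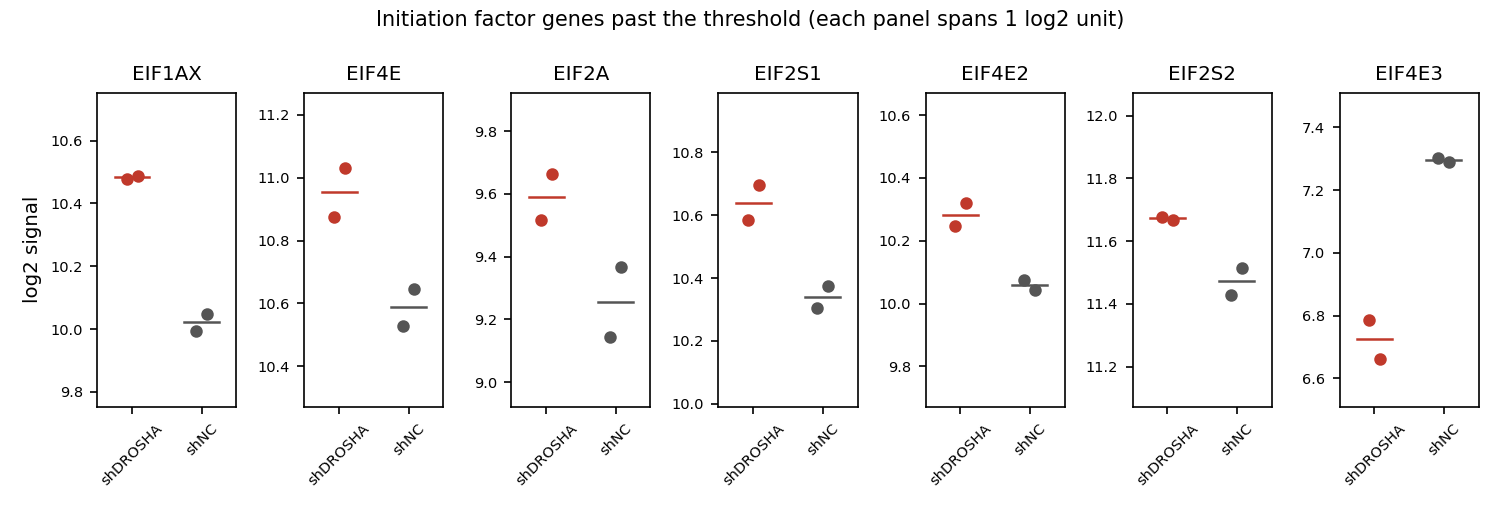
Log2 signal (vertical, each panel spanning 1 log2 unit) in shDROSHA (red, left) and the shNC arrays (grey, right) for the 7 genes past the threshold; points are arrays and lines are means of 2. In every panel the groups are separate, from EIF1AX at 10.48 and 10.49 against 9.99 and 10.05 to EIF4E3, where shDROSHA is the lower group.

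The cap-binding proteins went in different directions. EIF4E encodes the protein that holds the cap for translation and is limiting in many cells. Its signals were 10.88 and 11.03 in shDROSHA, against 10.53 and 10.65 in shNC. Every knockdown array exceeded every control. EIF4E rose by 0.37 (SE 0.062, 95% interval 0.23 to 0.50, adjusted p = 0.0028), or 1.29-fold, and stayed past the threshold without any 1 array, at 0.29 to 0.45.

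EIF4E2, whose product 4EHP also grips the cap but does not recruit the scaffold eIF4G and so holds translation back, had 10.25 and 10.32 in shDROSHA and 10.08 and 10.04 in shNC. The groups were separate, and it rose by 0.22 (SE 0.058, adjusted p = 0.035). This was the least secure of the calls: it was kept without shDROSHA replicate 1 but lost without each of the other arrays (adjusted p = 0.12 to 0.16) and after a further quantile normalization (0.19, adjusted p = 0.067). EIF4E3, a divergent relative that binds the cap in a different manner, had 6.79 and 6.66 in shDROSHA, against 7.30 and 7.29 in shNC. The controls agreed closely and both lay above both knockdown arrays. EIF4E3 fell by 0.57 (SE 0.127, 95% interval -0.84 to -0.30, adjusted p = 0.016), 1.49-fold lower in shDROSHA and the largest difference among the 45. Its probe set lies in the middle of the 5 signal bins, where 4.7% of all probe sets were called. The call was lost without shNC replicate 1 (-0.56, adjusted p = 0.11) and without shNC replicate 2 (-0.58, adjusted p = 0.078). EIF4E1B, known from oocytes, had 7.70 and 7.89 against 7.80 and 7.69, overlapping, with a difference of 0.049.

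EIF4E is also a textbook target of the transcription factor MYC, which binds the letters CACGTG, and its promoter is shown for that reason. Both strands of the 300-base window held 2 matches, beginning 225 and 72 bases before the RefSeq start. They lie in chr4:98929341-98929370 and chr4:98929188-98929217 (GRCh38.p14, minus strand), and the capitals mark the match, which reads the same on both strands.
EIF4E distal: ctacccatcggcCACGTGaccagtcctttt
EIF4E proximal: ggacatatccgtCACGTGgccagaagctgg
The letters occurred in 10 of the 38 members (26.3%) and in 8.77% of genes with a promoter. Of the 10, EIF4E alone changed, and of the other 28 it was 5, where 6.41% of all probe sets were called and 15.6% in the brightest bin. The median difference of the 10 was 0.045, against 0.087 for the other 28. MYC itself, singled out after its values were seen, had 8.37 and 8.31 in shDROSHA and 8.23 and 8.26 in shNC, a difference of 0.09 (adjusted p = 0.66).

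Apart from EIF4ENIF1, the measured partners of the cap-binding protein differed little. EIF4G1, the scaffold that links the cap to eIF3, had 9.73 and 9.70 in shDROSHA against 9.67 and 9.67 in shNC, a difference of 0.045 (SE 0.063, adjusted p = 0.78). EIF4B and EIF4H, cofactors of the helicase eIF4A, differed by 0.016 and 0.0021, and both turned negative after a further quantile normalization (-0.023 and -0.023). The inhibitors that compete with eIF4G for eIF4E were also near 0: EIF4EBP1 had 10.44 and 10.29 against 10.29 and 10.40, and EIF4EBP2 had 10.73 and 10.73 against 10.72 and 10.66. Their differences were 0.024 (95% interval -0.12 to 0.16) and 0.039 (95% interval -0.070 to 0.15). EIF4ENIF1, which carries eIF4E into the nucleus and into processing bodies, had 7.75 and 8.00 in shDROSHA against 8.07 and 8.06 in shNC. Both knockdown arrays were lower, by -0.19 on average (95% interval -0.42 to 0.044), with an adjusted p of 0.38. EIF4A1, EIF4A2, EIF4G2, EIF4G3 and EIF4EBP3 were not analysed here, so the helicase itself is missing from this account.

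The eIF3 scaffold stood on both sides of 0. Of its 13 measured genes 6 were higher and 7 lower as deposited, 7 and 6 after median centring, and the log2 fold changes ran from -0.13 to 0.12 with a median of -0.0048. None passed in the trended fit of limma (4 at an unadjusted p under 0.05), and the 95% interval of each lay between -0.23 and 0.24. The share called was 6.41% of all probe sets and 15.6% in the brightest bin, which holds all of these genes but EIF3B. In that bin 1412 of 3721 probe sets had an unadjusted p under 0.05 in limma. EIF3C had 10.83 and 10.85 in shDROSHA against 10.96 and 10.97 in shNC, a difference of -0.13 (SE 0.048, adjusted p = 0.15), and it passed after a further quantile normalization (-0.16, adjusted p = 0.047). Its near-identical copy EIF3CL may share its probes. EIF3M, at the other end, had 11.50 and 11.56 against 11.37 and 11.44, a difference of 0.12 (SE 0.046, adjusted p = 0.15). EIF3A, the largest subunit, was higher by 0.072 and EIF3D, a subunit that can itself bind the cap of some mRNAs, lower by a log2 fold change of -0.10. EIF3K had the tightest arrays of the set, 12.37 and 12.37 against 12.43 and 12.43, a difference of -0.058 with an adjusted p of 0.41. EIF3H and EIF3L were called lower without shDROSHA replicate 1 (-0.19 each), and EIF3L was higher by 0.050 without shDROSHA replicate 2.

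Several eIF3 genes share a feature of their first transcribed bases. Messages of ribosomal proteins and of some translation factors start with C and a run of pyrimidines, the terminal oligopyrimidine (TOP) start, through which the kinase mTOR and the protein LARP1 control their translation. A C at the RefSeq start followed by at least 4 pyrimidines, on the transcribed strand only, was found in 8 of the 38 members (21.1%) and in 5.14% of 27305 genes. Of the 8 eIF3 genes with a RefSeq promoter 4 had it, as did 4 of the 30 others. The windows below span 15 bases on either side of the start, with the pyrimidine run in capitals, and end with 3 of the genes that rose and lack it, in which the capital is the first base.
EIF3D, chr22:36529152-36529181, minus strand: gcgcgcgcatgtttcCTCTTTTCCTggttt
EIF3F, chr11:7987322-7987351, plus strand: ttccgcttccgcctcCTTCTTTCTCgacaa
EIF3K, chr19:38619173-38619202, plus strand: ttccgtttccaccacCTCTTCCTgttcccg
EIF3M, chr11:32583816-32583845, plus strand: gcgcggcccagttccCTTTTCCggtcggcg
EIF4B, chr12:53006441-53006470, plus strand: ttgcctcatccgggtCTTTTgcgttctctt
EIF2S3, chrX:24054941-24054970, plus strand: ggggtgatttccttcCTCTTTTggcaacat
EIF2A, chr3:150546772-150546801, plus strand: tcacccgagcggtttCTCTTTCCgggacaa
EIF1AX, chrX:20141824-20141853, minus strand: gcaaagagtcgcggcGccatttgctgccgc
EIF2S1, chr14:67360313-67360342, plus strand: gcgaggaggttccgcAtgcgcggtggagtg
EIF4E, chr4:98929119-98929148, minus strand: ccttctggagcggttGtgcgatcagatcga
All coordinates are GRCh38.p14 from RefSeq, and EIF2D was the eighth gene with such a start. The 8 genes had log2 fold changes of -0.10 to 0.34 with a median of 0.049, against a median of 0.081 for the 30 without it. Of the 8 only EIF2A changed, and of the 30 it was 5, where 6.41% of all probe sets were called and 15.6% in the brightest bin. EIF2S2, which also rose, was not among the 38 with a RefSeq promoter. LARP1, singled out after its values were seen, differed by -0.0042 (10.17 and 10.14 in shDROSHA, 10.18 and 10.14 in shNC).

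Factors that act outside the initiation step itself did not pass. EIF4A3, the helicase that anchors the exon junction complex on spliced mRNA, had 9.00 and 8.74 in shDROSHA against 8.81 and 9.19 in shNC, and its arrays overlapped widely (difference -0.13, SE 0.116). EIF5A, which helps ribosomes through difficult peptide bonds once it carries hypusine, had 12.51 and 12.41 against 12.44 and 12.47 and a difference of 0.0058. Its paralog EIF5A2 had 8.33 and 8.59 against 8.29 and 8.31, a difference of 0.16 (adjusted p = 0.43) that was 0.027 without shDROSHA replicate 2. EIF5AL1, a near-identical copy of EIF5A, lay in the dimmest bin. EIF6, which keeps the large subunit from joining too early and is needed to make it, had 12.08 and 12.02 in shDROSHA against 11.93 and 11.92 in shNC. The groups did not overlap, and the difference of 0.13 (SE 0.039) had an adjusted p of 0.076, and it passed with each array centred on its median (0.16, adjusted p = 0.038).

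**Figure D4:**
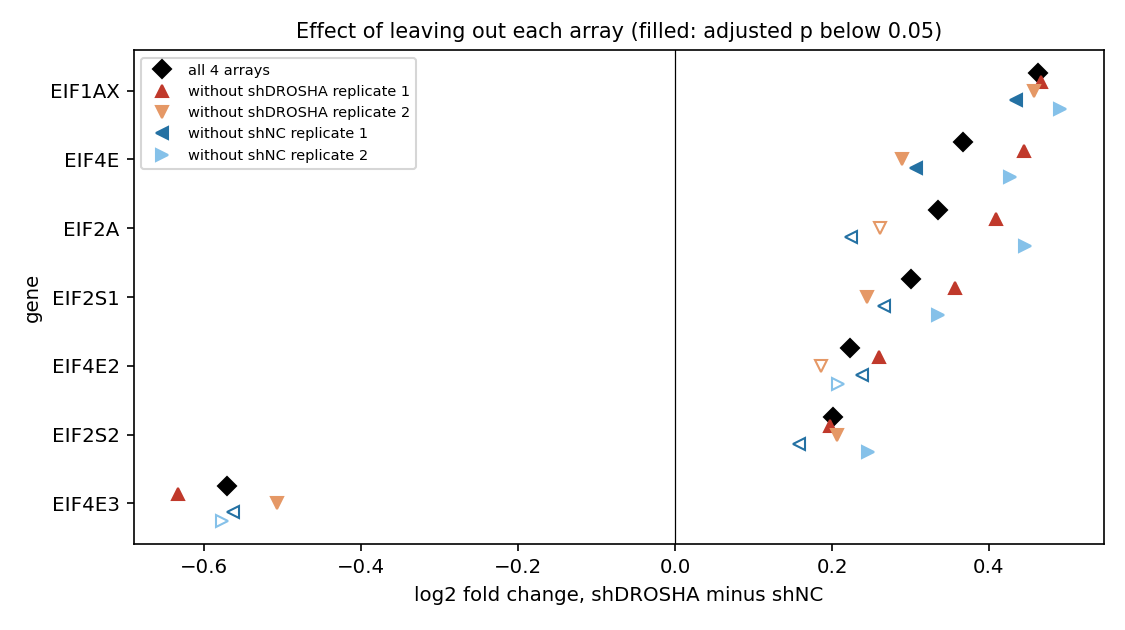
Log2 fold change (horizontal) of the 7 genes past the threshold (vertical) with all 4 arrays and with each array left out in turn; filled symbols have an adjusted p under 0.05. EIF1AX and EIF4E keep filled symbols throughout, EIF4E2 has 3 open ones, and no symbol crosses 0.

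Elsewhere in the translation machinery, a list covered factors of elongation, termination, recycling and the poly(A) tail, together with the helicases DHX29 and DDX3X. Of its 22 genes 16 were measured, of which 2 rose, 2 fell and 12 did not pass. The 4 called are 25% of the 16, against 6.41% of all probe sets, and 10 of the 16 lay in the brightest bin, where 15.6% were called. ABCE1, the ATPase that splits ribosomes after termination and so supplies free subunits, had 11.29 and 11.26 in shDROSHA against 10.96 and 10.97 in shNC, and rose by 0.31 (SE 0.046, adjusted p = 0.0012). DDX3X, a helicase for structured leaders, rose by 0.24 (SE 0.055, adjusted p = 0.019), a call lost without shNC replicate 1 (0.17, adjusted p = 0.23). EEF1A2, the tissue-restricted form of the factor that brings tRNAs to the ribosome, had 8.21 and 8.23 against 8.77 and 8.71 and fell by 0.52 (SE 0.085, adjusted p = 0.0025). PAIP2, which blocks the poly(A)-binding protein, had 11.40 and 11.34 against 11.54 and 11.65 and fell by 0.23 (SE 0.048, adjusted p = 0.012), a call lost without shNC replicate 2 (-0.17, adjusted p = 0.13). The list's median was 0.032, and 10 were higher, with 11 after centring and 9 after a further quantile normalization.

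Of the 28 measured regulators of initiation factors, among 30 listed, 1 rose and 0 fell (5 at an unadjusted p under 0.05 in limma), and 14 were higher and 14 lower. The 1 called is 3.57% of the 28, against 6.41% of all probe sets. That 1 was PPP1R15A (GADD34), the phosphatase subunit that removes phosphate from eIF2 alpha, with 8.27 and 8.28 in shDROSHA against 7.92 and 7.57 in shNC. Its control arrays lay far apart, though both below the knockdown arrays, and it rose by 0.53 (SE 0.117, adjusted p = 0.014). Without shNC replicate 2 it differed by 0.35 and did not pass (adjusted p = 0.14). The next smallest p-values belonged to RHEB, the activator of mTOR (0.28, adjusted p = 0.078, and 0.0055 with the replicate number as a block), RPS6KB1, a kinase downstream of mTOR (0.14, adjusted p = 0.16), and EIF2AK1, the heme-sensing eIF2 kinase (-0.13, adjusted p = 0.22). The 4 eIF2 kinases together gave 0 that passed in limma (1 at an unadjusted p under 0.05).

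The exon junction partners of EIF4A3 were higher in all 3 measured cases of 4 listed, of which MAGOHB rose by 0.29 (SE 0.056, adjusted p = 0.0071, and 0.063 without shNC replicate 2), while RBM8A and MAGOH differed by 0.17 and 0.25 (adjusted p = 0.075 and 0.077). All 3 lay in the brightest bin, where 15.6% of all probe sets were called and 55.7% had a difference above 0. Among the mitochondrial translation factors, 7 of 9 listed were measured and 0 passed in limma (2 at an unadjusted p under 0.05). For comparison, 6.41% of all probe sets were called and 9343 of 18603 were higher. In the brightest bin, which held 4 of the 7, 15.6% were called. All 7 were higher as deposited and 6 of 7 after a further quantile normalization. MTIF2, a mitochondrial initiation factor, was nearest the threshold (0.22, adjusted p = 0.052). It was past the threshold under several settings, such as median centring (0.26, adjusted p = 0.033).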

How the data were processed

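Total RNA of 4 MDA-MB-231 samples was hybridised as biotin-labelled cDNA to Affymetrix arrays. The authors deposited log2 signals per probe set, made with RMA per the submitters' processing notes; the sources used here name neither its version nor any filter. Of 18603 probe sets, 15886 have 1 gene symbol in the platform annotation, 0 several and 2717 none; all 45 members matched RefSeq by Entrez identifier. Groups came from sample titles. limma 3.58.1 in R 4.3.3 (lmFit, eBayes with trend) compared shDROSHA with shNC, with p-values adjusted by Benjamini-Hochberg across the whole table and a threshold of 0.05; it had 11.9 prior and 2 residual degrees of freedom and was tested on simulated data. With 2 arrays against 2, an exact permutation test cannot go below 0.333, and the number of arrays limits the precision. The trended fit was preferred because the residual SD falls from 0.213 in the dimmest of 5 signal bins to 0.067 in the brightest.

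The members, role groups, gene lists, tests and alternatives were chosen with earlier results of these data known. The naming rule gave every member past the threshold, the 2 with the largest change per role group, close relatives, and of each list those past the threshold and up to 4 with the smallest p. Alternatives were the constant, robust and blocked fits, filters on dim probe sets, 2 scalings, 1 probe set per gene, another threshold, a fold minimum and leaving out each array. Promoter windows (GRCh38.p14) came from RefSeq, which held 38 of the 45; motifs were searched by exact letters. Same-numbered arrays did not deviate together (correlation -0.022).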

Additional observations from a re-analysis of the deposited data

How the results depend on the processing

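The count of 7 initiation factor genes was 0 with a constant prior and 0 with a fold of at least 1.5, 2 to 11 when single arrays were left out, and 7 to 9 under the other settings. The median filter leaves out EIF4E3 and adds EIF6, and the further quantile normalization drops EIF4E2 and adds EIF3C. The count over all probe sets, 1192, became 1 with a constant prior (2774 at unadjusted p under 0.05 in limma), 1824 at adjusted p 0.10, 245 with a fold of at least 1.5, and 535 to 1949 without single arrays. Median centring made 62.5% of all calls higher, against 48.7% as deposited. The replicate block gave 7 members, the same 7 genes, and 1391 probe sets, and changed no member's call. Of the other genes named in the report, it brought RHEB and MTIF2 (adjusted p = 0.0055 and 0.019) past the threshold. DROSHA (-0.99) missed the threshold only with a constant prior (adjusted p = 0.084). The median over members stayed between 0.033 and 0.085. No called gene reversed. Genes near 0 changed sign: after a further quantile normalization EIF5A (-0.0078), EIF4B (-0.023), EIF4H (-0.023), EIF4EBP1 (-0.011) and EIF5B (-0.0071), and after centring EIF3G (0.028) and LARP1 (0.029). Leaving out single arrays turned the sign of 11 members, none of them called, and gave ranges of EIF5A -0.042 to 0.053, EIF4B -0.027 to 0.059, EIF3L -0.19 to 0.050, EIF4H -0.054 to 0.058, EIF3G -0.043 to 0.033, EIF4EBP1 -0.052 to 0.10, EIF5B -0.047 to 0.077, EIF4A3 -0.32 to 0.061, EIF2B4 -0.023 to 0.16, EIF3B -0.061 to 0.11 and EIF4E1B -0.043 to 0.14; LARP1 ran from -0.021 to 0.012.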
